A study of Mus musculus with 24 samples.

Results

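The genes of the integrated stress response and of serine synthesis were followed across the 10 groups of a bone marrow study. The 10 genes were Atf4, Atf3, Atf5, Ddit3, Trib3, Chac1, Asns, Psat1, Psph and Aldh1l2, taken by name from the arrays' own annotation, where 13 probes carried one of these names. They are 10 of the 24488 genes tested. Trib3, Psph and Aldh1l2 had 2 probes each, and the probe with the higher mean of both channels after background correction stood for the gene.

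In the integrated stress response, kinases that sense unfolded protein, missing amino acids, double-stranded RNA or lack of heme phosphorylate the translation initiation factor eIF2, which lowers protein synthesis as a whole but raises translation of ATF4. ATF4 is a bZIP transcription factor that pairs with C/EBP proteins and turns on genes of amino acid uptake and synthesis, tRNA charging and, under long stress, cell death. The serine pathway makes serine from a glycolytic intermediate and feeds one-carbon units to nucleotide synthesis, and its enzymes are known ATF4 targets. Since ATF4 is controlled largely by translation and arrays measure RNA, the level of Atf4 RNA is not a readout of ATF4 protein.

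All mice were female C57BL/6J aged 6 weeks, and each array carried total bone marrow RNA that the labels describe as 9 pooled samples. Mice were injected intraperitoneally with olive oil or with a compound that activates AhR, the aryl hydrocarbon receptor, and the labels give a single dose of 50 mg/kg for all, TCDD included. BP (benzo(a)pyrene) and DMBA (a dimethyl benz(a)anthracene) are polycyclic hydrocarbons, substrates of the enzymes CYP1A1 and CYP1B1, and TCDD (a tetrachlorinated dioxin) is hardly metabolised. Wild-type (WT) mice received oil (3 arrays), BP with marrow taken at 6 h (2 arrays), DMBA at 12 h (3 arrays) or TCDD at 12 h (3 arrays). Mice labelled Cyp1b1-null received oil (2 arrays) or DMBA at 12 h (2 arrays), and Cyp1a1-null mice received oil (3 arrays) or BP at 12 h (3 arrays). Mice labelled Cyp1b1/Cyp1a1-null, called double-null here, received oil (1 array) or BP at 12 h (2 arrays). The labels give no time for oil and do not say how the null alleles were made. The sample was labelled with Cy3 and a common reference, pooled marrow of oil-treated WT mice, with Cy5, and dyes were never swapped. Values below are log2 ratios of Cy3 over Cy5 unless a channel is named, so 0 means the level of the reference. In bulk marrow, fewer cells of a type and less RNA per cell cannot be told apart.

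Arrays differed in ways that the groups do not explain. WT oil replicate 1 stood apart: its log ratios had an SD of 1.26 over genes, against 0.20 to 0.67 on the other 23 arrays. On that array 9 measured hepatocyte markers were bright in both channels, with summed log2 signals (relative to the array's 75th percentile) of 7.07 in Cy3 and 10.4 in Cy5, while no other array went above 1.07 in either. Neutrophil, B-lineage and erythroid markers were dimmer in its Cy5 channel than in that of any other array, although the labels give all arrays the same reference. Every comparison was therefore fitted with all 24 arrays and with the 23 arrays other than this one. Log ratios of arrays also grouped by slide: over genes they correlated at a mean r of 0.74 within a slide and group (12 pairs of arrays) and 0.67 between groups on a slide (11 pairs), against 0.22 for arrays of the same group on other slides (7 pairs). Arrays of different groups on different slides also had a mean r of 0.22 (246 pairs). Across slides, arrays of 1 group were thus no more alike than arrays of different groups. No slide held WT oil beside WT BP, WT TCDD or any null group, so for each comparison of these with WT oil the slide and the group cannot be told apart, except as far as a random slide effect allows. All 8 neutrophil and all 7 erythroid markers were well above background in Cy3 on every array.

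The Cyp1a1 probe, a target gene of AhR, lay between -0.20 and -0.13 in Cyp1a1-null oil, between -0.07 and 0.11 in Cyp1a1-null BP and between -0.43 and -0.10 on the double-null arrays. It reached 1.71 and 1.94 in WT BP and 1.76 to 1.93 in WT DMBA. In Cyp1b1-null DMBA the Cyp1a1 ratio was only 0.23 and 0.04, inside the WT oil range, and in Cyp1b1-null oil it was 0.02 and -0.01. The Cyp1a1 Cy3 signal was -1.50 and -2.85 in Cyp1b1-null DMBA and -7.67 and -7.53 in Cyp1b1-null oil. In that genotype the ratio thus did not show the difference between DMBA and oil seen in Cy3, and the reason was not tested. Among WT TCDD arrays the Cyp1a1 ratio was 1.55 in replicate 3 but 0.18 and 0.15 in the others, which is within the WT oil range of -0.11 to 0.48. The Cy3 signal was -4.67, -1.79 and -1.54 in WT TCDD replicates 1 to 3 and -1.39, -4.43 and -3.97 in WT oil. TCDD replicate 2 was thus near replicate 3 in Cy3 though not in the ratio. The brighter Cyp1b1 probe did not fall below the WT oil range on the arrays labelled as lacking that gene. It stood at 0.51 and 1.08 in the 2 arrays labelled Cyp1b1-null oil and at 1.11 to 1.57 on the double-null arrays, against -0.06 to 0.57 in WT oil. In Cyp1b1-null DMBA it read 0.14 and 0.06, inside the WT oil range but below WT DMBA (0.37 to 0.48). Whether the probe lies inside the deleted part is not known here, so it does not check that label, and the group is called by its label throughout.

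The promoters of 4 genes are shown: the 3 members whose window holds a C/EBP-ATF response element, the sequence to which ATF4 and its C/EBP partners bind, and Trib3, the member that differed most between genotypes, whose window holds none. Each window is the 250 bases before the RefSeq transcription start (GRCm38.p6), written 5′ to 3′ in the gene's orientation. Capitals mark a match to TGATGNAA or its reverse complement.
Chac1, chr2:119350992-119351241, plus strand: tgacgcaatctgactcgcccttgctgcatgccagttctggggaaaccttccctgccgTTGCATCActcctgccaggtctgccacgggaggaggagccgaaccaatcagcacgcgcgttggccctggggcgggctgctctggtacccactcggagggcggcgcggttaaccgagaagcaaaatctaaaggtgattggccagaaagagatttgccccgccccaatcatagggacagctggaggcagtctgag
Atf3, chr1:191183334-191183583, minus strand: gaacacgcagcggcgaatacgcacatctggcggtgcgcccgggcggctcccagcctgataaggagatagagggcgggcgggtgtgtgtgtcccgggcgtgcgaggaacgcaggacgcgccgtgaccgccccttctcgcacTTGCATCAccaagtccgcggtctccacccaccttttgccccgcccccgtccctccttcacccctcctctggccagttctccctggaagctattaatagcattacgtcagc
Asns, chr6:7693210-7693459, minus strand: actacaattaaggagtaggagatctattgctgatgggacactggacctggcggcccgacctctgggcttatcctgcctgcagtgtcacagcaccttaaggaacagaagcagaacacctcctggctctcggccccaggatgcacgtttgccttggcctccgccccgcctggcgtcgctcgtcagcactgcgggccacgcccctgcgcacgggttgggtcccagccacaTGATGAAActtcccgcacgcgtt
Trib3, chr2:152344061-152344310, minus strand: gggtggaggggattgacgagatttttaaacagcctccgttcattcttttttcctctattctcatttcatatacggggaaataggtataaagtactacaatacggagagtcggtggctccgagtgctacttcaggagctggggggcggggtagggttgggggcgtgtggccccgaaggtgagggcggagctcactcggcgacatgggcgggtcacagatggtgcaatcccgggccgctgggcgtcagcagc
TGATGNAA was searched on both strands. The match begins 193 bases before the start in Chac1, 110 in Atf3 and 23 in Asns. Of 32851 promoter windows of this length, 3.45% hold the motif, and among the 9 members with a window only these 3 do. The Psph window among the 9, chr5:129787254-129787503 on the minus strand, lies partly inside the gene, whose highest position is 129787443. TGACGTCA, the cAMP response element, is in 1.55% of all windows and in none of the 9. GCGTG, the core to which AhR and its partner ARNT bind, is in 28.2% of all windows and in 8 of the 9, all but that of Atf5. All were searched on both strands, and no match to TGATGNAA shares a base with a match to GCGTG in these windows. A match is a description of the letters and shows no binding.

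Differences between groups were tested with limma across all 24488 genes (24475 where the single double-null oil array enters), with p-values adjusted by Benjamini-Hochberg and called under 0.05. Against WT oil, 1 of 10 members was called in WT BP, where 0.735% of all genes were called. In WT DMBA limma called 0 of 10, with 3 members at an unadjusted p under 0.05, where 0% of genes were called. In WT TCDD it was 1 of 10 with 2.12% of genes, in Cyp1b1-null oil 1 of 10 with 15.4%, in Cyp1a1-null oil 2 of 10 with 3.59%, and in double-null oil 1 of 10 with 1.57%. In Cyp1b1-null oil the members' share was near that of all genes.

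Without WT oil replicate 1 more genes passed everywhere. In WT BP 3 of 10 members were called against a background of 3.87%, in WT DMBA 0 of 10 (1 at an unadjusted p under 0.05) against 0.098%, and in WT TCDD 2 of 10 against 6.16%. In Cyp1b1-null oil 2 of 10 were called against 29.6%, which is no more than the background. Cyp1a1-null oil had 4 of 10 against 7.58%, and double-null oil 5 of 10 against 6.09%, all higher. Double-null oil is 1 array, and 1 of its 5 is Aldh1l2, whose probes disagree. The median difference of the 10 members from WT oil was then 0.47 in Cyp1a1-null oil and 0.89 in double-null oil, while that of all genes was 0.03 and 0.05. With all 24 arrays the same medians were 0.06 and 0.32 for the members and 0.02 and 0.04 for all genes.

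Among the other comparisons with all 24 arrays, DMBA against TCDD in WT mice called 1 of 10 members, with 0.645% of genes. Cyp1b1-null DMBA against its oil control called 0 of 10 (1 at an unadjusted p under 0.05, background 0.0245%), and Cyp1a1-null BP against oil called 0 of 10 (0 at that level, background 0.0327%). Double-null BP against oil called 0 of 10 (1 at that level, background 0.282%), and Cyp1b1-null DMBA against WT DMBA 0 of 10 (2 at that level, background 0.102%). Double-null against Cyp1a1-null after BP called 0 of 10 (0 at that level, background 0.163%), Cyp1a1-null against Cyp1b1-null oil 0 of 10 (3 at that level, background 4.99%), and the difference between the DMBA responses of Cyp1b1-null and WT mice 0 of 10 (1 at that level, background 0.00817%). All of these calls are limma's.

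Without WT oil replicate 1 the count was 2 of 10 for DMBA against TCDD (background 6.25%), 1 of 10 for Cyp1b1-null DMBA against oil (7.47%), 1 of 10 for Cyp1b1-null against WT DMBA (1.57%), 2 of 10 for Cyp1a1-null against Cyp1b1-null oil (21.7%) and 1 of 10 for the difference between DMBA responses (3.04%). Limma again called 0 of 10 in Cyp1a1-null BP against oil (1 at an unadjusted p under 0.05, background 0.155%), in double-null BP against oil (3 at that level, background 0.519%) and in double-null against Cyp1a1-null BP (1 at that level, background 3.64%). That array is no part of most of these differences, and it bears on them through the shared estimate of spread.

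**Figure D1:**
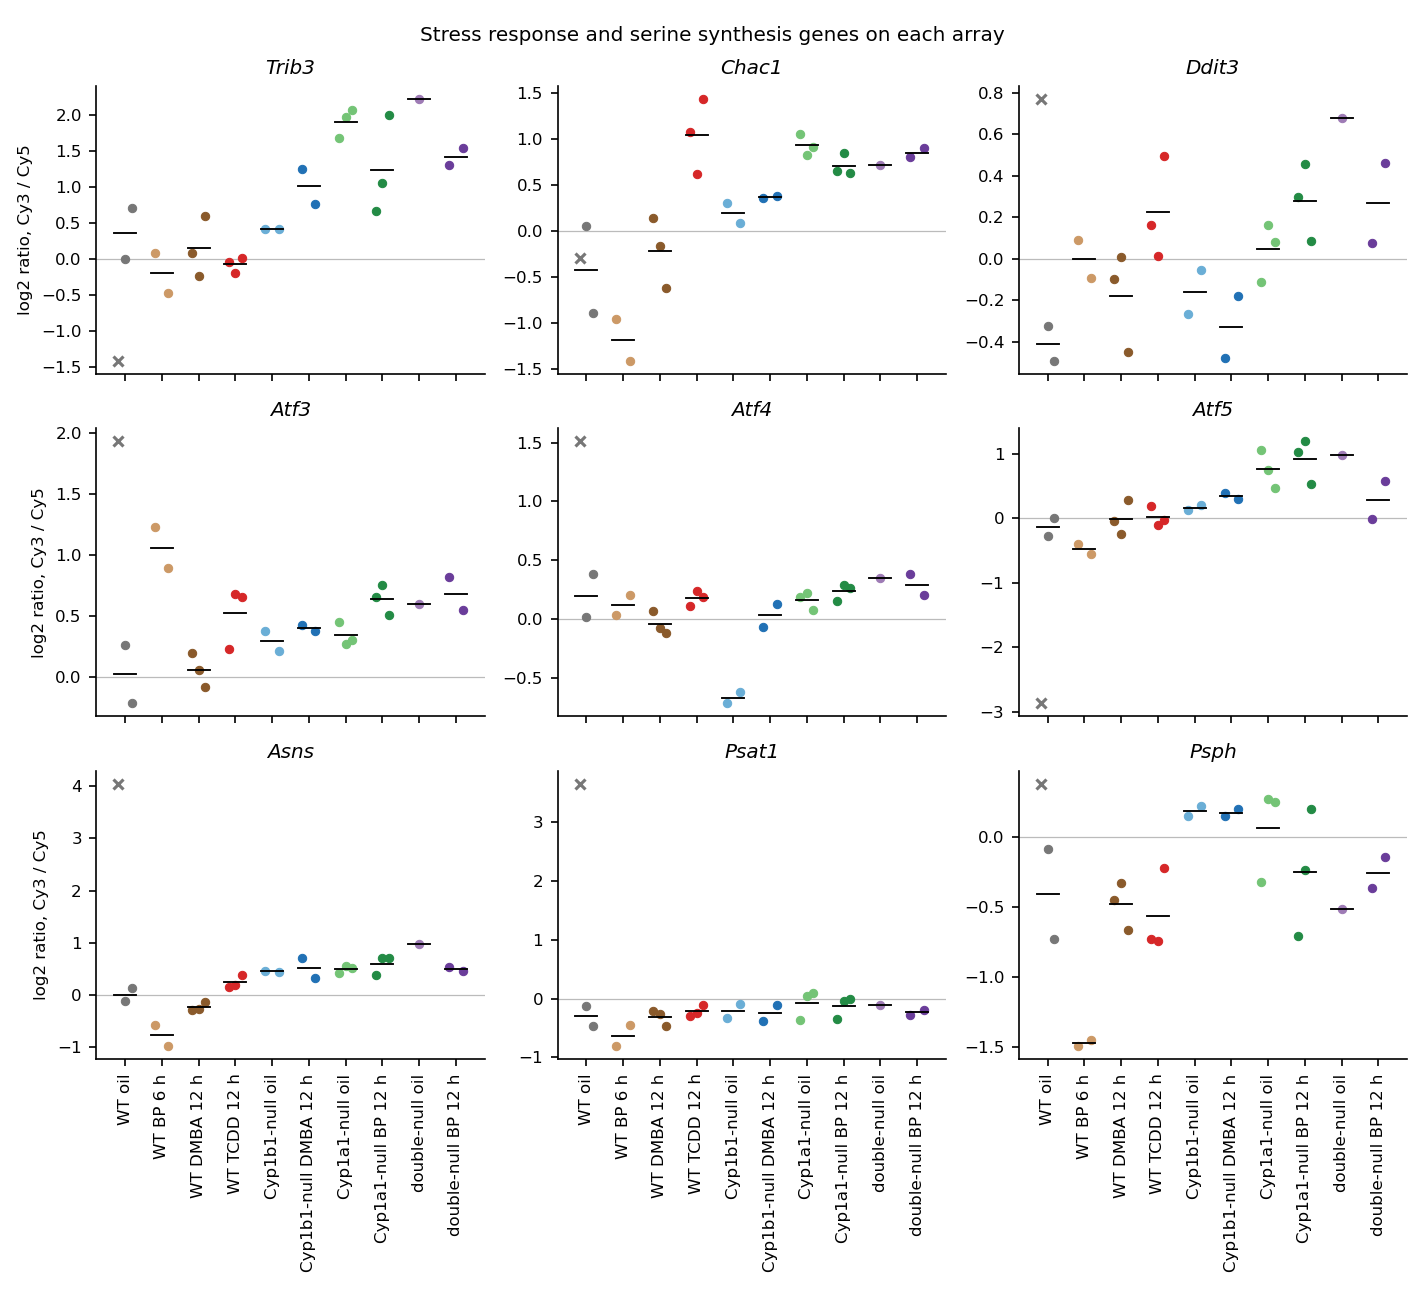
Log2 ratio of sample (Cy3) over reference (Cy5) on each of the 24 arrays for 9 of the 10 genes, by group. Circles are arrays, the cross is WT oil replicate 1, and black lines are group means without that array. Trib3 lay at 1.68 or above in Cyp1a1-null oil and double-null oil, and Chac1 at 0.62 or above in WT TCDD, while Asns and Psat1 read 4.04 and 3.65 on WT oil replicate 1.

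Atf4 (chr15:80255184-80257545, all gene positions in GRCm38.p6), the central activator of the response, was at 1.51, 0.01 and 0.38 in WT oil and at -0.72 and -0.62 in Cyp1b1-null oil. Apart from WT oil replicate 1, it lay between -0.12 and 0.38 on every other array, so the 2 arrays labelled Cyp1b1-null oil were the lowest of all 24. Between Cyp1b1-null oil and WT oil, 38.9% of all genes had no overlap, and 64.4% without WT oil replicate 1. Atf4 fell by 1.31 ± 0.27 (SE, 2 against 3 arrays) on the log2 scale, 2.47-fold, against WT oil (adjusted p = 0.0072, limma), and by 0.87 ± 0.13, 1.83-fold, without WT oil replicate 1 (adjusted p = 0.00053). It was 0.83 ± 0.12 higher in Cyp1a1-null oil than in Cyp1b1-null oil in that fit (adjusted p = 0.00082), and with all 24 arrays this missed the threshold (0.83 ± 0.27, adjusted p = 0.076).

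For Atf4 the 2 channels gave different values. Its Cy3 signal in Cyp1b1-null oil was 2.82 and 2.33, within the 2.47 to 2.98 of WT oil for the first array and just below it for the second. Its Cy5 signal, which carries the common reference, was 3.34 and 2.91 on those arrays and 1.58, 2.45 and 2.53 in WT oil. From Cy3 alone the difference was -0.22 (adjusted p = 0.48, limma), so the call does not hold without the reference channel. It also ended when either Cyp1b1-null oil array was left out of the 24-array fit (-1.26, adjusted p = 0.079, without replicate 1 and -1.36, adjusted p = 0.069, without replicate 2). The difference was about as large in these fits, in which the group is 1 array and is assumed to vary like the others. Within the slide that held both, 2 Cyp1a1-null BP arrays exceeded the 2 Cyp1b1-null oil arrays by 0.89, where the median of all genes was 0.04. Treatment and genotype both differ between these groups.

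After DMBA, Atf4 in arrays labelled Cyp1b1-null was at -0.07 and 0.13, above both oil arrays of that label and inside the WT range. Between DMBA and oil in that genotype, 72.8% of all genes had no overlap. The Atf4 difference from oil was 0.70 ± 0.13 without WT oil replicate 1 (2 against 2 arrays, adjusted p = 0.0060, limma) and 0.70 ± 0.29 with all 24 arrays (adjusted p = 0.28). From Cy3 alone it was -0.34. WT DMBA arrays stood at 0.07, -0.08 and -0.12.

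Atf3 (chr1:191170296-191183333), a bZIP factor induced early by many stresses, was at 1.93, 0.27 and -0.21 in WT oil and at 1.23 and 0.89 in WT BP. Apart from WT oil replicate 1, both BP arrays were the highest of all, and the remaining arrays lay between -0.21 and 0.82. Without that replicate, 44.1% of all genes had no overlap between WT BP and WT oil. The Atf3 difference from WT oil was 0.40 ± 0.39 with all 24 arrays (adjusted p = 0.63, limma) and 1.04 ± 0.18, 2.05-fold higher, without that replicate (2 against 2 arrays, adjusted p = 0.0057). Leaving out WT oil replicate 3 from the 24 arrays brought it to -0.04. In Cy3 alone with WT oil replicate 1 left out it was 1.86 (adjusted p = 0.0089). TCDD arrays read 0.23, 0.68 and 0.66 for Atf3, which was 0.50 ± 0.16 above WT oil in that fit (adjusted p = 0.075).

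Atf5 (chr7:44812256-44816658), a bZIP factor whose translation is controlled like that of ATF4, was highest in double-null oil and in both Cyp1a1-null groups. It read 1.06, 0.75 and 0.47 in Cyp1a1-null oil, 1.04, 1.19 and 0.54 in Cyp1a1-null BP and 0.99 in double-null oil. WT oil replicates 2 and 3 stood at -0.28 and 0.01, below all of these. Between those 2 arrays and Cyp1a1-null oil, 36.5% of all genes had no overlap, and 72.6% none against double-null oil. WT oil replicate 1 read -2.87. That low ratio came from a Cy5 signal of 6.33, where the other arrays had 2.00 to 2.94. Without it Atf5 was 1.86-fold higher in Cyp1a1-null oil (log2 0.89 ± 0.21, adjusted p = 0.021, limma) and 2.18-fold higher in double-null oil (1.12 ± 0.29, adjusted p = 0.030). With all 24 arrays the differences were 1.80 ± 0.49 (adjusted p = 0.052, limma) and 2.03 ± 0.69, neither called. From Cy3 alone with all arrays the Cyp1a1-null oil difference was 0.20. The Atf5 Cy3 signal was 3.07, 2.73 and 2.41 there and 3.12, 2.25 and 2.23 in WT oil. Over 22 alternative settings the Cyp1a1-null oil difference lay between 0.20 and 2.38 and was called in 7.

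The double-null arrays after BP read 0.00 and 0.58 for Atf5, both under the single double-null oil array on the same slide. Between these groups 71.6% of all genes had no overlap. By their mean of 0.29 the BP arrays were also under Cyp1b1-null DMBA (mean 0.35). The Atf5 difference from double-null oil did not pass the test in either fit.

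Ddit3 (chr10:127290793-127296291) encodes CHOP, the factor linked to cell death under long stress. It read 0.77, -0.32 and -0.49 in WT oil, 0.16, 0.01 and 0.49 in WT TCDD and 0.68 in double-null oil. WT oil replicate 1 was the highest array of all, and the other WT oil arrays were among the lowest. Without that replicate Ddit3 was 1.55-fold higher in TCDD (0.63 ± 0.17, adjusted p = 0.042, limma) and 2.13-fold higher in double-null oil (1.09 ± 0.23, adjusted p = 0.014). With all 24 arrays the values were 0.24 ± 0.25 (adjusted p = 0.61) and 0.70 ± 0.35 (adjusted p = 0.32), so both calls rest on leaving that array out. The double-null oil value is a single array.

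Trib3 (chr2:152337425-152344060), a pseudokinase that ATF4 and CHOP induce and that feeds back on ATF4, showed the widest difference between genotypes among the members. It read 1.68, 1.97 and 2.06 in Cyp1a1-null oil and 2.22 on the double-null oil array. WT oil arrays were at -1.41, 0.01 and 0.71, and WT arrays after BP, DMBA or TCDD lay between -0.46 and 0.60. Every Cyp1a1-null oil array was above every WT array, of any treatment. Against WT oil alone, 18.8% of all genes had no overlap with Cyp1a1-null oil.

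Trib3 was 4.40-fold higher in Cyp1a1-null oil than in WT oil with all 24 arrays (2.14 ± 0.41, 3 against 3 arrays, adjusted p = 0.014, limma) and 2.92-fold higher without WT oil replicate 1 (1.55 ± 0.32, adjusted p = 0.0095). The first call ended without Cyp1a1-null oil replicate 2 (2.10, adjusted p = 0.059) or replicate 3 (2.06, adjusted p = 0.073), with a difference about as large. In double-null oil the differences were 2.45 ± 0.58, 5.46-fold (adjusted p = 0.045), and 1.86 ± 0.42, 3.63-fold (adjusted p = 0.017). Cy3 alone, without the reference channel, gave 2.15 in Cyp1a1-null oil (adjusted p = 0.0024) and 3.36 in double-null oil (adjusted p = 0.0051). With slide as a random block neither passed (1.49, adjusted p = 0.75, and 2.29, adjusted p = 0.93). The Cyp1a1-null oil arrays and Cyp1a1-null BP replicate 3 were read with a later version of the Feature Extraction software than all other arrays. With version as a term the difference was 1.00 (adjusted p = 0.48, limma). Only Cyp1a1-null BP held both versions, so that term rests on its arrays.

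In mice labelled Cyp1b1-null, Trib3 was at 0.42 and 0.42 after oil and at 1.25 and 0.77 after DMBA. The oil arrays were inside the WT oil range, and Cyp1a1-null oil exceeded them by 1.48 ± 0.32, 2.79-fold, without WT oil replicate 1 (adjusted p = 0.0053, limma) and by 1.48 ± 0.46 with all 24 arrays (adjusted p = 0.066). The dimmer Trib3 probe ordered these 2 groups the other way, at 1.04 and 1.06 after oil and 0.24 and 0.14 after DMBA. The mean of both probes reduced the difference between Cyp1a1-null and Cyp1b1-null oil to 1.00. In Cyp1a1-null oil (1.17, 1.79 and 1.72) and double-null oil (1.48) the dimmer probe was high as well, with WT oil at -0.29, 0.00 and -0.55. Averaging the probes gave 1.99 for Cyp1a1-null oil (adjusted p = 0.00052) and 2.10 for double-null oil (adjusted p = 0.0041).

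After BP, Trib3 was at 0.67, 1.06 and 2.00 in Cyp1a1-null mice and at 1.30 and 1.54 in double-null mice. None of these lay above the highest oil array of its genotype. Between double-null BP and double-null oil, 71.6% of all genes had no overlap. The spread within Cyp1a1-null BP followed the slide: replicates 1 and 2 shared a slide with Cyp1b1-null oil, and replicate 3 one with Cyp1a1-null oil. Replicate 3 also had the later software version, so slide and version cannot be told apart there. The difference from oil was -0.66 ± 0.41 in Cyp1a1-null mice (95% interval -1.53 to 0.20) and -0.80 ± 0.61 in double-null mice, and neither passed the test in either fit. Within the slide that held both, Cyp1a1-null BP replicate 3 was 0.09 above the mean of the oil arrays.

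**Figure D2:**
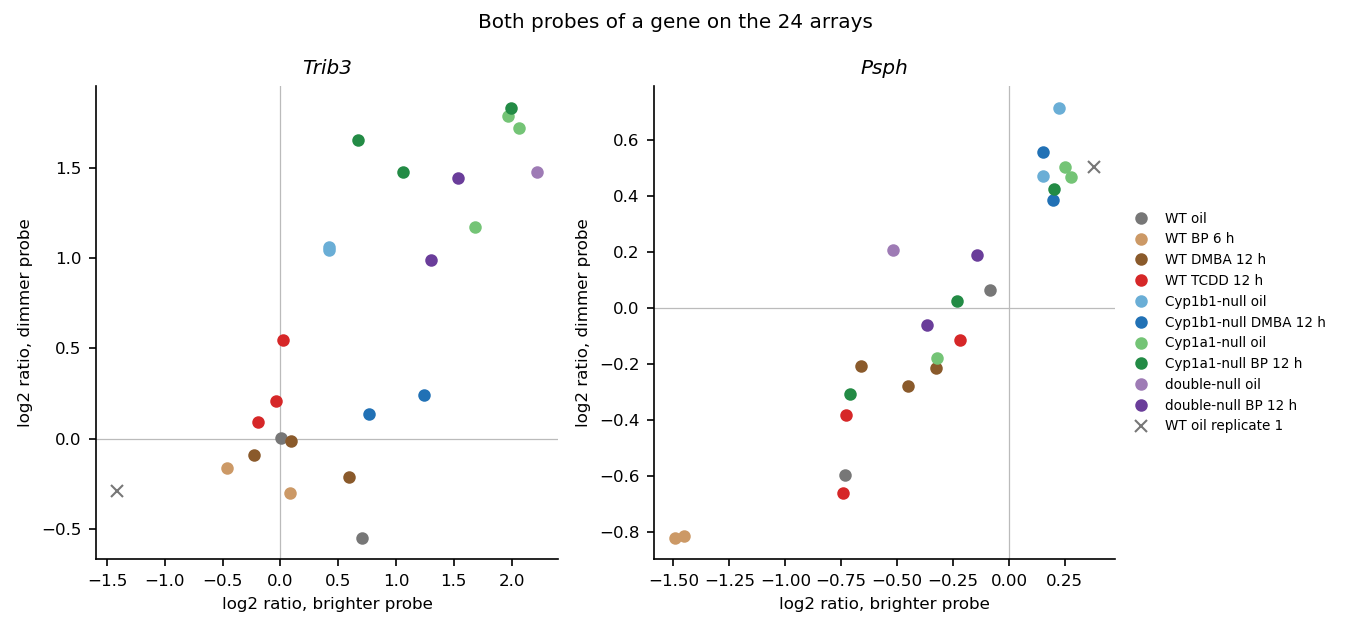
Log2 ratio of the dimmer probe against that of the brighter probe for Trib3 and Psph on the 24 arrays, coloured by group, with a cross for WT oil replicate 1. Pearson's r over the other 23 arrays, which share slides and a reference, was 0.75 for Trib3 and 0.93 for Psph, and the Cyp1b1-null arrays stand off the Trib3 diagonal.

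Chac1 (chr2:119351242-119354326) encodes an enzyme that degrades glutathione and is a known ATF4 target. It was highest in WT TCDD, at 1.08, 0.62 and 1.43, and in Cyp1a1-null oil, at 1.05, 0.82 and 0.92. WT oil read -0.30, 0.05 and -0.90, WT DMBA 0.13, -0.17 and -0.63, and WT BP -0.96 and -1.42. No TCDD or Cyp1a1-null oil array overlapped WT oil, DMBA or BP. Of all genes, 17.3% had no overlap between WT TCDD and WT oil, and 18.8% none between Cyp1a1-null oil and WT oil.

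Chac1 was 2.68-fold higher after TCDD than after oil (1.42 ± 0.24, 3 against 3 arrays, adjusted p = 0.011, limma) and 2.76-fold higher without WT oil replicate 1 (adjusted p = 0.0076). Cyp1a1-null oil exceeded WT oil 2.49-fold (1.31 ± 0.24, adjusted p = 0.011) and 2.56-fold in the second fit (adjusted p = 0.0072). Without TCDD replicate 3, the TCDD array with the highest Cyp1a1 ratio, the 24-array TCDD call ended at 1.23 (adjusted p = 0.071). In Cy3 alone the TCDD difference was 1.66 (adjusted p = 0.0037) and that of Cyp1a1-null oil 1.21 (adjusted p = 0.042). With slide as a random block neither passed, at differences of 1.47 (adjusted p = 1.0) and 1.41 (adjusted p = 0.75), and all 3 TCDD arrays were on a slide of their own.

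The other null groups were also above WT oil replicates 2 and 3 for Chac1: 0.31 and 0.08 in Cyp1b1-null oil, 0.36 and 0.38 in Cyp1b1-null DMBA, 0.65, 0.85 and 0.63 in Cyp1a1-null BP, 0.71 in double-null oil and 0.80 and 0.90 in double-null BP. None of these groups passed the test against its comparison group. Without WT oil replicate 1, 64.4% of all genes had no overlap between Cyp1b1-null oil and WT oil, and 72.6% none between double-null oil and WT oil. Double-null oil differed from WT oil by 1.09 ± 0.33 (adjusted p = 0.11, limma), and by 1.14 ± 0.35 without WT oil replicate 1 (adjusted p = 0.061). The BP arrays of WT mice, at 6 h, were the lowest of all arrays, but the difference from WT oil (-0.81 ± 0.26, adjusted p = 0.17, limma) did not pass. Between WT BP and WT oil, 22.3% of all genes had no overlap. BP was measured at 6 h in WT mice and at 12 h in the null mice, so the BP values of the genotypes are not compared.

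DMBA and TCDD were given to WT mice at the same labelled dose and time, and their Chac1 values did not overlap. Of all genes, 31.9% had no overlap between these groups. Chac1 was 2.40-fold lower after DMBA than after TCDD (-1.26 ± 0.24, 3 against 3 arrays, adjusted p = 0.026, limma; 0.0041 without WT oil replicate 1). The call ended in the 24-array fit without DMBA replicate 2 (-1.29, adjusted p = 0.083) or replicate 3 (-1.06, adjusted p = 0.14), without TCDD replicate 1 (-1.24, adjusted p = 0.096) or replicate 3 (-1.06, adjusted p = 0.14), and with slide as a random block (-1.49, adjusted p = 1.0). Over 23 settings the difference lay between -1.49 and -0.92. Asns was 0.47 ± 0.13 lower after DMBA in the second fit (adjusted p = 0.036) and missed the threshold with all 24 arrays (adjusted p = 0.99). No other member passed in either fit. Of 6 megakaryocyte and platelet markers, 2 were lower after TCDD than after oil in both fits, with median log2 ratios of -0.20, -0.05 and 0.19 after TCDD, 0.79, 0.69 and 0.51 after DMBA and 1.57, 0.70 and 0.63 in WT oil replicates 1 to 3. Their summed Cy3 level was 2.76 to 4.34 after TCDD, 4.85 and 5.07 in WT oil replicates 2 and 3, and 2.71 in replicate 1. Between WT TCDD and WT oil, 2.12% of all genes were called with all 24 arrays and 6.16% without WT oil replicate 1. The part of these markers in the Chac1 result was not tested.

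**Figure D3:**
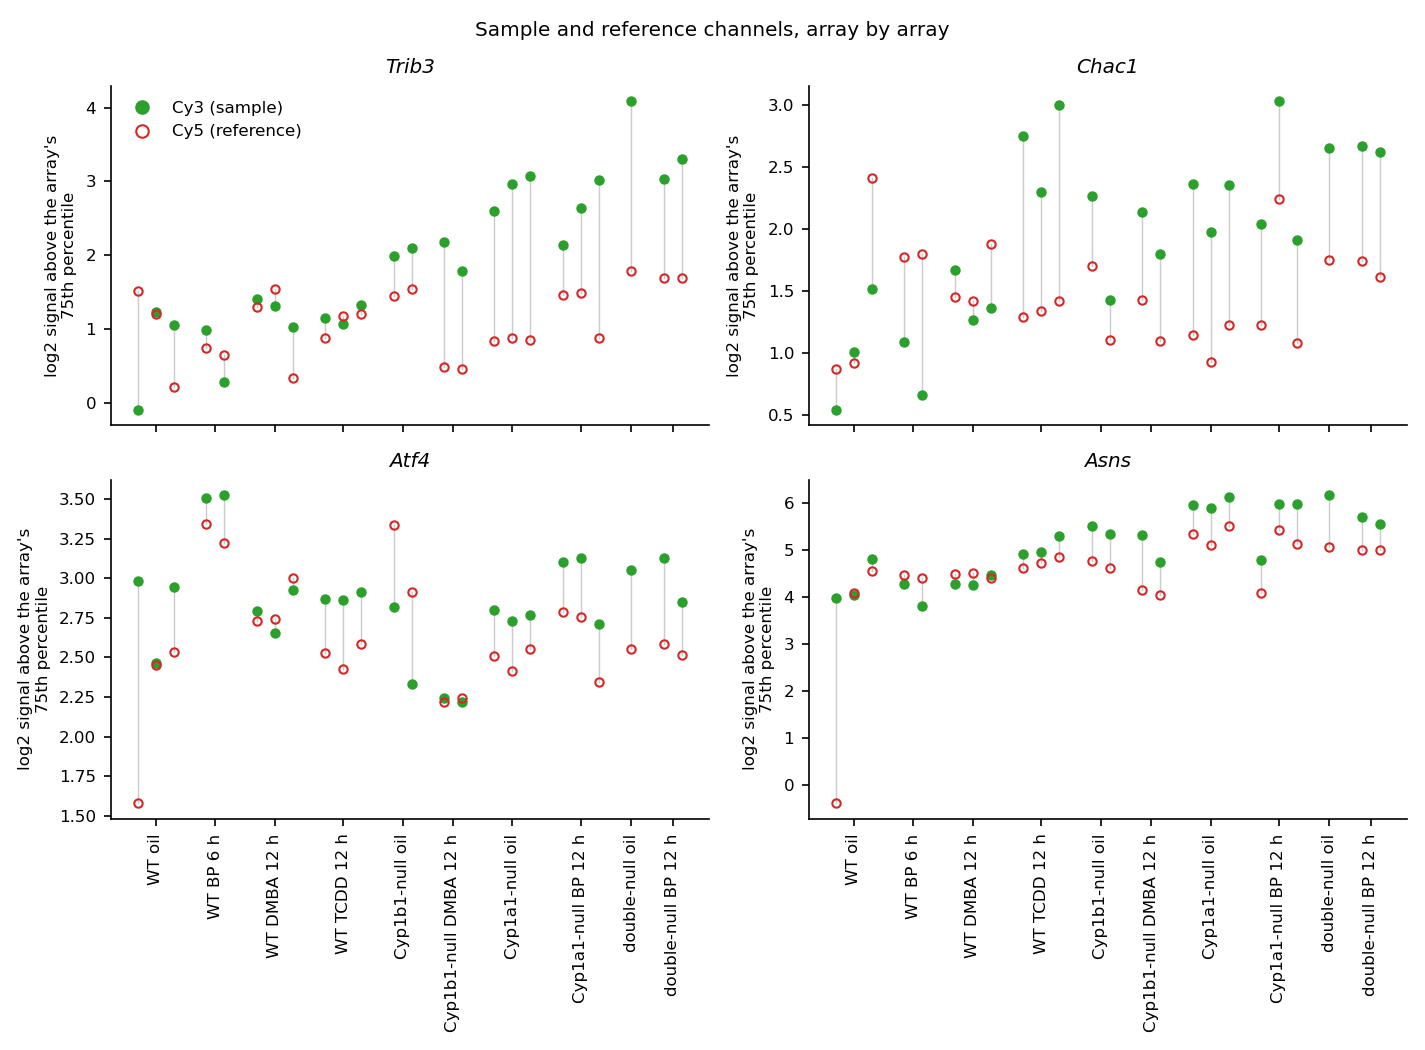
Log2 signal of Cy3 (sample, filled) and Cy5 (common reference, open), relative to each array's 75th percentile, for Trib3, Chac1, Atf4 and Asns on the 24 arrays in group order. The Trib3 Cy3 signal is 2.60 to 4.09 in Cyp1a1-null oil and double-null oil against -0.10 to 1.22 in WT oil, Atf4 in Cyp1b1-null oil differs mainly in Cy5, and the Asns Cy5 signal of WT oil replicate 1 is -0.39.

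Asns (chr6:7675165-7693209), asparagine synthetase, is the classic amino acid response gene. It read 4.04 on WT oil replicate 1 and -0.11 and 0.12 on the others. The Cy5 signal of replicate 1 was -0.39, where all other arrays had 4.04 to 5.51, while its Cy3 signal of 3.98 was inside the range of the others (3.82 to 6.17). Asns then ran upward from WT BP at -0.57 and -0.98, over WT DMBA at -0.29, -0.28 and -0.14, WT TCDD at 0.16, 0.18 and 0.38 and Cyp1a1-null oil at 0.42, 0.56 and 0.51 to double-null oil at 0.98.

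Because of that array the sign of the Asns difference depends on it. With all 24 arrays the differences from WT oil were -0.90 in Cyp1b1-null oil, -0.85 in Cyp1a1-null oil and -0.38 in double-null oil, none called. Without it they were 0.45 ± 0.16 (1.36-fold, adjusted p = 0.041, limma), 0.49 ± 0.14 (1.41-fold, adjusted p = 0.045) and 0.97 ± 0.19 (1.96-fold, adjusted p = 0.010). In WT BP Asns was 1.72-fold lower without that array (-0.78 ± 0.16, adjusted p = 0.012), and -2.12 ± 0.76 with it (adjusted p = 0.20). The WT BP difference was only -0.22 in Cy3 alone with all arrays. Asns Cy3 signals were 4.28 and 3.82 in WT BP and 3.98, 4.04 and 4.81 in WT oil. It was called in 3 of 21 alternative settings. From Cy3 alone with all arrays Asns was 1.72 higher on the log2 scale in Cyp1a1-null oil (adjusted p = 0.0063, limma). The Asns Cy5 signal, which carries the common reference, was also higher there, at 5.35, 5.12 and 5.51. In WT oil it was -0.39, 4.09 and 4.55, so the Cy3 difference is not that of the sample alone. After DMBA, Cyp1b1-null arrays stood at 0.71 and 0.33 and exceeded WT DMBA by 0.75 ± 0.14, 1.69-fold, in the 23-array fit (adjusted p = 0.012), a call not made with all 24.

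Among the serine enzymes, Psph (chr5:129765558-129787443), phosphoserine phosphatase, catalyses the last step to serine and was the member called after BP in both fits. It read -1.49 and -1.45 in WT BP, the lowest of all arrays, against 0.38, -0.08 and -0.73 in WT oil. Between WT BP and WT oil, 22.3% of all genes had no overlap. Psph fell by 1.33 ± 0.29 on the log2 scale, 2.51-fold (2 against 3 arrays, adjusted p = 0.042, limma), and by 1.06 ± 0.27, 2.09-fold, without WT oil replicate 1 (adjusted p = 0.036). The dimmer probe also had its lowest values there, at -0.82 and -0.81, with WT oil at 0.50, 0.06 and -0.60. The mean of both probes missed the threshold (-1.07, adjusted p = 0.088), as did Cy3 alone (-0.74, adjusted p = 0.25), and the call ended when either BP array was left out (-1.31 and -1.35, adjusted p = 0.28 for each). In those 2 fits the difference was as large but BP was a single array, assumed to vary like the other groups. With slide as a random block it was -1.29 (adjusted p = 1.0).

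Cell markers moved with WT BP as well. The 6 megakaryocyte and platelet markers had median log2 ratios of -0.05 and -0.47 after BP against 1.57, 0.70 and 0.63 in WT oil, and 1 of them with all 24 arrays and 2 in the 23-array fit were lower. The median of the 8 neutrophil markers was 1.07 and 0.95 after BP against 4.26, -0.31 and 0.68 in WT oil, and 1 was higher in the 23-array fit. Between WT BP and WT oil, 0.735% of all genes were called with all 24 arrays and 3.87% in the 23-array fit. The part of these markers in the Psph, Atf3 and Asns values after BP was not tested.

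Psat1 (chr19:15905123-15925059), the aminotransferase before it, was not called by limma in any comparison or fit, and passed an unadjusted p under 0.05 only in WT BP with all 24 arrays (a difference of -1.65 ± 0.74, adjusted p = 0.30). WT oil replicate 1 read 3.65 with a dim Cy5 signal (-2.45), and the other 23 arrays lay between -0.80 and 0.09, with WT BP replicate 1 lowest at -0.80. On Cyp1a1-null BP replicate 2 the spot was dim in both channels (Cy3 -2.99, Cy5 -2.94), with a ratio of -0.04. Aldh1l2 (chr10:83487447-83534146), a mitochondrial folate enzyme, was dim: the probe used was well above background in Cy3 on 13 of 24 arrays, with 0 of 2 in WT BP, 0 of 3 in WT TCDD and 1 of 3 in WT oil. The other probe was on 17 of 24, with 0 of 2 in WT BP, 2 of 3 in WT TCDD and 1 of 3 in WT oil. Its probes ran against each other (r = -0.49 over 23 arrays), and on the double-null oil array they read 0.58 and -0.39. Limma called it higher there in the 23-array fit (0.81, adjusted p = 0.010), where it is among the 5 members counted, but with 1 array, a dim control and a second probe of opposite sign no change is given for it.

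**Figure D4:**
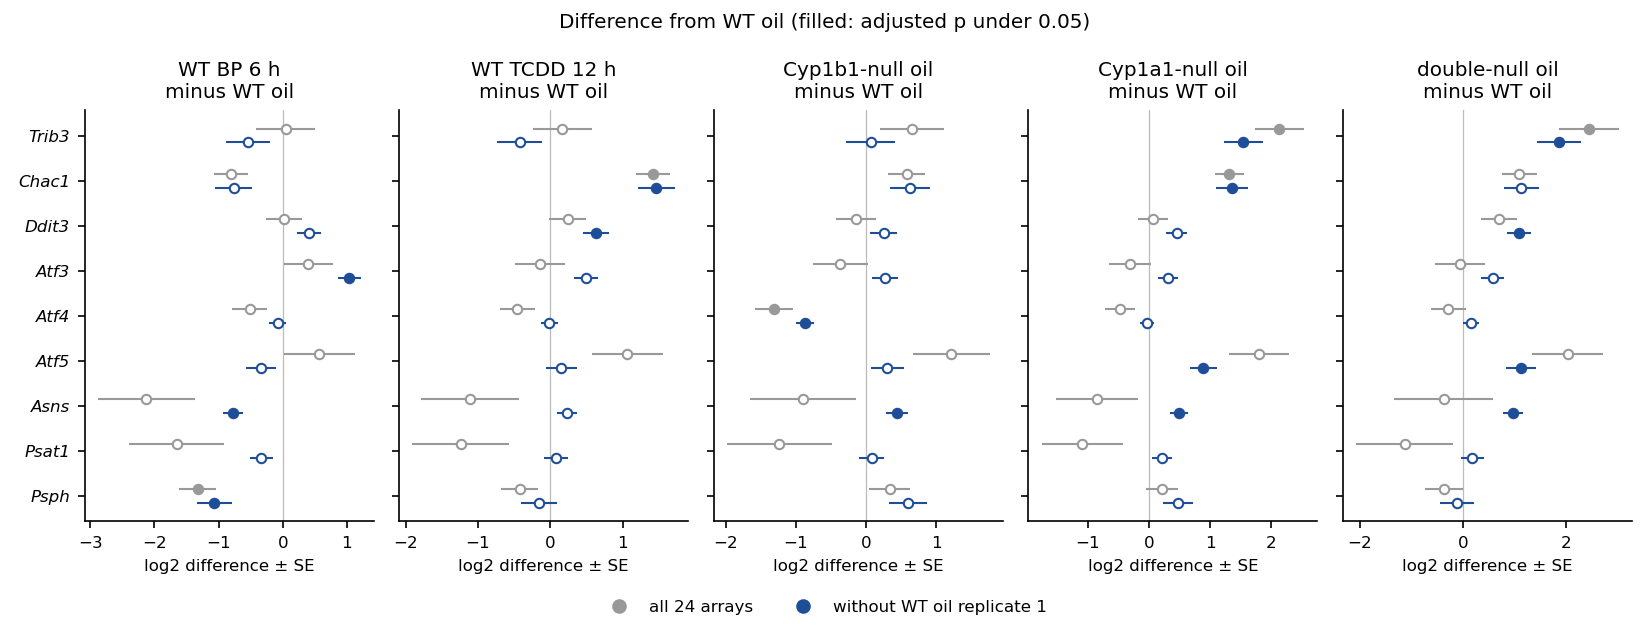
Difference from WT oil (log2, limma) with its SE for 9 genes in 5 comparisons, with all 24 arrays (grey) and without WT oil replicate 1 (blue); filled circles have an adjusted p under 0.05. Trib3 in Cyp1a1-null and double-null oil, Chac1 in WT TCDD and Cyp1a1-null oil, Atf4 in Cyp1b1-null oil and Psph in WT BP are filled in both fits, and Asns changes sign between the fits in the 3 null oil groups.

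Over the 23 arrays the members did not move as a block. Trib3 correlated at r = 0.76 with Asns and 0.74 with Atf5, Chac1 at 0.76 with Asns and 0.47 with Trib3, and Atf4 at 0.29 with Trib3 and 0.18 with Chac1. By group mean, Trib3 ran from double-null oil, Cyp1a1-null oil and double-null BP down to WT TCDD and WT BP, while Chac1 was highest in WT TCDD and lowest in WT BP. Neighbours in the Trib3 order overlapped from double-null BP to Cyp1b1-null DMBA and from Cyp1b1-null oil downward. The genes whose ratios were most like those of Trib3 were Cyb5r1 (r = 0.93), Mthfd2 (0.89), a mitochondrial one-carbon enzyme, and Tmco4 (0.88). For Chac1 they were Tab1 (0.88), Pip4k2c (0.86) and Cdkn3 (0.86), for Atf5 Tpm2 (0.81), Clu (0.81) and F11r (0.80), and for Psat1 Srm (0.89), Phgdh (0.86), which makes the first step of serine synthesis, and Gaa (0.83). These correlations share slides and the reference and are descriptions.

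Other genes of the pathway were counted in the same fits. In Cyp1a1-null oil against WT oil, 3.59% of all genes were called with all 24 arrays and 7.58% without WT oil replicate 1. In Cyp1a1-null oil 4 of 11 measured cytosolic tRNA synthetases were called against WT oil in each fit, all higher, among them Aars (1.06, adjusted p = 0.018, limma; 0.80 without WT oil replicate 1), Sars (0.42, adjusted p = 0.024; 0.42) and Cars (0.42, adjusted p = 0.037; 0.50). Of 13 other ATF4 partners and stress targets 2 were called, Eif4ebp1, an inhibitor of translation initiation (0.85, adjusted p = 0.011), and Gdf15, a stress cytokine (1.00, adjusted p = 0.046). In the 23-array fit Eif4ebp1 was at 0.63 and Gdf15, at 0.74, was not called (adjusted p = 0.082). In that fit 4 were called, all higher, with Sesn2 (0.92, adjusted p = 0.0045) and Cebpb (1.09, adjusted p = 0.013). Of 7 other serine and one-carbon enzymes, Shmt2 was the 1 higher with all arrays (1.28, adjusted p = 0.049). Without WT oil replicate 1 its difference was 0.69 (adjusted p = 0.043), and Mthfd2 (0.59, adjusted p = 0.021) and Phgdh (0.61, adjusted p = 0.049) were higher too.

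Of 9 amino acid transporters 3 were higher in Cyp1a1-null oil, in the 23-array fit only: Slc7a3 (0.93, adjusted p = 0.015, limma), Slc7a5 (0.66, adjusted p = 0.026) and Slc3a2 (0.44, adjusted p = 0.021). The background was 7.58% of all genes in that fit and 3.59% with all 24 arrays. Of 6 eIF2 kinases and phosphatase subunits, Eif2ak2, the kinase that senses double-stranded RNA, was lower in both (-0.51, adjusted p = 0.038 with all arrays), and Ppp1r15a, which restores translation, was higher in the 23-array fit (0.91, adjusted p = 0.039). Among 12 genes of the unfolded protein response Edem1 was the only call over both fits, lower in the second (-0.72, adjusted p = 0.033). In that fit 3 of 8 neutrophil markers and 3 of 7 erythroid markers were also higher in Cyp1a1-null oil, and 1 erythroid marker was lower. Summed Cy3 levels of the neutrophil markers were at most 9.36 there and 10.3, 9.54 and 10.2 in WT oil replicates 1 to 3. Their median log2 ratios were 0.88, 1.22 and 1.10 there, -0.31 and 0.68 in WT oil replicates 2 and 3, below all of these, and 4.26 in replicate 1. The macrophage (0.42 to 0.77), megakaryocyte and platelet (0.96 to 1.28) and erythroid medians (0.26 to 0.34) were also above WT oil replicates 2 and 3. Those arrays read 0.20 and 0.17, 0.70 and 0.63, and -0.10 and 0.09, and replicate 1 read -0.82, 1.57 and 3.93. The B-lineage and T and NK medians overlapped replicates 2 and 3. The part of these cell markers in the pathway differences was not tested.

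In double-null oil, Eif4ebp1 was the 1 of 13 ATF4 partners and targets called with all 24 arrays (1.06, adjusted p = 0.021, limma), and Sesn2 (1.38, adjusted p = 0.0030) and Vldlr (1.11, adjusted p = 0.038) joined it without WT oil replicate 1. Aars, Sars and Cars were the 3 higher of 11 synthetases, in the second fit only, as were Slc7a5 (1.05, adjusted p = 0.014) and Slc3a2 (0.49, adjusted p = 0.048) of 9 transporters and Eif2s2 (0.57, adjusted p = 0.024) of 8 eIF2 and eIF2B subunits. Of all genes, 1.57% were called in double-null oil with all 24 arrays and 6.09% in the second fit. On that array the median log2 ratio was -0.48 for neutrophil, -0.55 for B-lineage, 0.46 for macrophage and 1.10 for megakaryocyte and platelet markers. WT oil replicates 2 and 3 read -0.31 and 0.68, 0.28 and 0.27, 0.20 and 0.17, and 0.70 and 0.63. Erythroid (0.00) and T and NK markers (-0.17) were near replicate 2 (-0.10 and -0.18). The part of these markers was not tested.

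Arrays labelled Cyp1b1-null oil showed both directions. Eif2ak3, which encodes PERK (-1.15, adjusted p = 0.016, limma), and Ppp1r15b (-0.53, adjusted p = 0.019) were the 2 lower of 6 kinases and phosphatase subunits, and Eif2s1 (-0.58, adjusted p = 0.0048) and Eif2s3x (-0.73, adjusted p = 0.017) the 2 lower of 8 eIF2 and eIF2B subunits. Slc7a11, the cystine transporter (-1.12, adjusted p = 0.0073), was the 1 lower of 9 transporters, and Pck2 was lower too (-1.24, adjusted p = 0.027). Tars (1.03, adjusted p = 0.014), Aars (0.78, adjusted p = 0.037), Eif4ebp1 (0.74, adjusted p = 0.011), Gdf15 (0.98, adjusted p = 0.034), Ern1 (0.84, adjusted p = 0.011) and Atf6 (0.70, adjusted p = 0.046) were higher. With 15.4% of all genes called in that comparison, counts of this size are near the background.

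Without WT oil replicate 1 several of these differences were smaller: Eif2ak3 was at -0.78 (adjusted p = 0.012, limma), Pck2 at -0.68 (0.011), Tars at 0.63 (0.0021) and Eif4ebp1 at 0.51 (0.0062), while Aars (0.52, adjusted p = 0.067) and Gdf15 (0.72, adjusted p = 0.060) missed the threshold. Ppp1r15b (-0.46), Eif2s1 (-0.62), Eif2s3x (-0.48), Slc7a11 (-0.98), Ern1 (0.77) and Atf6 (0.94) were called again in the same direction. Further calls in that fit were Sesn2 (1.07, adjusted p = 0.0010), Slc7a5 (0.91, adjusted p = 0.0027), Lars (0.48, adjusted p = 0.026) and Eif2s2 (0.31, adjusted p = 0.045), which were higher. Slc1a5 (-0.74, adjusted p = 0.017), Xbp1, a factor of the unfolded protein response (-0.93, adjusted p = 0.0093), Eif2ak4 (-0.50, adjusted p = 0.040), Yars (-0.76, adjusted p = 0.032) and Aldh1l1 (-0.51, adjusted p = 0.013) were lower. The background of that fit was 29.6%.

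After BP in WT mice Eif2s1 was lower in both fits (-0.58, adjusted p = 0.029 with all arrays, limma), and Cebpg was lower (-0.60, adjusted p = 0.0097) and Slc3a2 higher (0.56, adjusted p = 0.014) in the 23-array fit. In that fit 2 of 12 genes of the unfolded protein response were lower after BP, Pdia4 (-0.83, adjusted p = 0.026) and Creld2 (-0.82, adjusted p = 0.046). After TCDD, Slc3a2 was higher (0.55, adjusted p = 0.010) and Cebpg lower (-0.46, adjusted p = 0.024) in that fit, and Chac1 and Ddit3 were the members called. Tars was also higher after TCDD (0.41, adjusted p = 0.039, limma), and 2 of 12 genes of the unfolded protein response were lower, Edem1 (-0.77, adjusted p = 0.032) and Pdia4 (-0.69, adjusted p = 0.034). The background with all 24 arrays was 0.735% of all genes in WT BP and 2.12% in WT TCDD. In the 23-array fit it was 3.87% and 6.16%.

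Between DMBA and TCDD the pathway lists had calls in the 23-array fit only. There 6.25% of all genes were called, against 0.645% with all 24 arrays. Of 11 synthetases 3 were lower after DMBA, Tars (-0.62, adjusted p = 0.0017, limma), Aars (-0.70, adjusted p = 0.019) and Sars (-0.35, adjusted p = 0.025), as were Slc3a2 (-0.38, adjusted p = 0.023), Eif4ebp1 (-0.42, adjusted p = 0.019), Ppp1r15a (-0.82, adjusted p = 0.041) and Mthfd1 (-0.46, adjusted p = 0.038). Higher after DMBA were Cebpb (0.92, adjusted p = 0.014), Cebpg (0.35, adjusted p = 0.034) and 3 of 12 genes of the unfolded protein response, Edem1 (0.82, adjusted p = 0.0094), Pdia4 (0.69, adjusted p = 0.015) and Dnajb9 (0.45, adjusted p = 0.034).

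The authors' deposited table, which gives 1 log2 value per probe and comparison and no error, listed Chac1 at 1.70 for TCDD, 1.48 for Cyp1a1-null oil and 1.28 for double-null oil. It had Trib3 at 1.43 and 1.73 for the last 2 (1.88 and 2.07 for the dimmer probe), and Psph at -0.80 and Atf3 at 1.05 for BP. In the authors' deposited table Atf4 stood at -0.74 for Cyp1b1-null oil and Asns at 0.61 there and 0.99 in double-null oil, which is the sign found here without WT oil replicate 1. Trib3 for Cyp1b1-null oil was -0.03 by the brighter and 1.27 by the dimmer probe in the authors' deposited table. Across probes its values for comparisons with WT oil correlated with differences of the processed signals at r of 0.39 to 0.81 with all arrays and 0.65 to 0.95 without that replicate; probes are not independent replicates.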

How the data were processed

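Total RNA of 24 samples was measured on 2-colour Agilent arrays. Each array's deposited file gives spot and local background intensity in both channels, made by Feature Extraction per the file headers and not normalized between arrays. A deposited table for all comparisons gives log2 differences between groups as the authors computed them, with no values per sample; its scale and direction were found by setting it against the arrays' processed ratios. The submitters' processing notes name limma, without a version. Columns of other samples numbered 0.

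Background correction was normexp with an offset of 50, followed by loess within arrays, in R 4.3.3 with limma 3.58.1, statmod 1.5.0 and version 1.17.8 of data.table. Of 43379 non-control spots, only the probe with the highest mean corrected signal of both channels per gene entered, and genes needed Cy3 well above background on at least 3 arrays. A model of 10 group means gave 14 comparisons, of which the series' own design names 9. Adjusted p-values are Benjamini-Hochberg over all genes tested, and ± is a standard error of the fit. For the single double-null oil array the spread was taken from the other groups. Beyond the pools of 9, nothing says that replicates came from separate mice, so p-values measure the spread between these arrays, whose number limits the precision. The fit was tested on simulated data. Replicate numbers did not pair the arrays.

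The members and gene lists were chosen with earlier results of these data known, and the lists are of textbook pathway and cell type genes. The text names the 10 members in every comparison, up to 3 called genes of each pathway list with the smallest adjusted p in a comparison (given for comparisons with WT oil and for DMBA against TCDD), the 3 genes most like Trib3, Chac1, Atf5 and Psat1 over 23 arrays, and Cyp1a1 and Cyp1b1. Gene positions and promoters are RefSeq's (GRCm38.p6). The alternatives were other background correction, filters, probe summary, Cy3 alone (log2 of the processed signal relative to the 75th percentile), scaling, slide, software version and replicate blocks, array weights, a different prior, fewer groups and leaving out each array.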

Additional observations from a re-analysis of the deposited data

Results flagged for a closer look

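The response of Atf4 to DMBA differed between arrays labelled Cyp1b1-null and WT arrays by 0.94 ± 0.17 on the log2 scale without WT oil replicate 1 (limma interaction term, adjusted p = 0.014). Both Cyp1b1-null DMBA arrays were above both oil arrays of that label, and 72.8% of all genes had no overlap between those groups. With all 24 arrays the difference of Atf4 responses was 1.38 ± 0.38 (adjusted p = 0.20). In Cy3 alone it was -0.33 with all arrays and -0.43 without WT oil replicate 1. Cyp1b1-null oil and Cyp1b1-null DMBA arrays were on different slides, so the slide and the treatment cannot be told apart for that arm. The Cyp1a1 ratio on the Cyp1b1-null DMBA arrays, 0.23 and 0.04, was also far below that of WT DMBA, although Cyp1a1 Cy3 was above that of Cyp1b1-null oil.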

How the results depend on the processing

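Of 140 pairs of member and comparison, 7 were called with all 24 arrays and 23 in at least 1 of the 2 fits. Over at most 26 alternatives per pair, 361 values of these 23 kept their direction and their side of the threshold, 53 lost and 52 gained a call, and 27 changed sign. Of the 117 other pairs, 87 changed sign in some alternative. The share of all genes called was not taken under the alternatives, except without WT oil replicate 1, where it is given above. Counts under the other alternatives therefore have no background beside them and are no result about the members. Main counts were 1 for WT BP, WT TCDD, Cyp1b1-null oil, double-null oil and DMBA against TCDD, 2 for Cyp1a1-null oil and 0 elsewhere. With slide as a random block (consensus correlation 0.82) every count was 0, and with WT oil replicate 1 also left out (0.57) it was 1 for Cyp1b1-null oil and 1 for Cyp1a1-null against Cyp1b1-null oil, Atf4 both times, and 0 otherwise. For WT BP the count was 0 with no background subtraction, processed signals with or without that replicate, the mean of probes, array weights, only the groups compared or a trended robust prior. Processed signals gave 0 for double-null oil and 1 for Cyp1a1-null oil, and without WT oil replicate 1 they gave 3 for WT TCDD, 4 for Cyp1b1-null oil, 5 for double-null oil, 2 for DMBA against TCDD, 1 for each Cyp1b1-null DMBA comparison and 3 for Cyp1a1-null against Cyp1b1-null oil. For double-null oil no background subtraction and the filter on 12 arrays gave 0, and no filter or software version as a term gave 2. Version as a term gave 0 for Cyp1a1-null oil. Array weights gave 0 for WT TCDD and Cyp1a1-null oil, 3 for DMBA against TCDD and for Cyp1a1-null BP against oil, 6 for Cyp1b1-null against WT DMBA, 4 for Cyp1a1-null against Cyp1b1-null oil, 2 for Cyp1b1-null DMBA against oil, and 1 for double-null against Cyp1a1-null BP and for the difference of DMBA responses. Only the groups compared gave 0 for all comparisons with WT oil, 2 for DMBA against TCDD and for Cyp1b1-null against WT DMBA, 1 for Cyp1b1-null DMBA against oil and 4 for Cyp1a1-null against Cyp1b1-null oil. Cy3 alone gave 3 for WT TCDD and for DMBA against TCDD with or without WT oil replicate 1, 4 for Cyp1a1-null oil, 2 and then 0 for Cyp1b1-null oil, and 1 and then 2 for Cyp1b1-null against WT DMBA. The mean of probes gave 2 for Cyp1b1-null oil and 1 for Cyp1a1-null against Cyp1b1-null oil. The replicate block changed 1 count, WT BP, to 0 (Psph -1.31, adjusted p = 0.060); deviations of same-numbered arrays correlated at -0.25 to 0.33 and 12 of 23 arrays correlated best with their own number.

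Leaving out each array in turn, the counts ranged from 0 to 3 for WT BP, 0 to 1 for WT DMBA, 0 to 2 for WT TCDD and for Cyp1b1-null oil, 1 to 4 for Cyp1a1-null oil, 2 to 5 for double-null oil, 0 to 2 for DMBA against TCDD and for Cyp1a1-null against Cyp1b1-null oil, and 0 to 1 for both Cyp1b1-null DMBA comparisons and the difference of DMBA responses. They stayed at 0 for the remaining comparisons. Asns changed sign against WT oil under the same 6 alternatives in each null genotype. In Cyp1a1-null oil it was 1.72 (Cy3 alone), 0.36 (array weights), 0.49 (without WT oil replicate 1), and with that array left out 0.43 (slide block), 0.60 (processed signals) and 1.57 (Cy3 alone). In the same order it was 1.15, 0.29, 0.45, 0.48, 0.70 and 1.00 in Cyp1b1-null oil and 1.90, 0.81, 0.97, 0.96, 1.23 and 1.75 in double-null oil. With the slide block Asns was also -0.064 for Cyp1b1-null against WT DMBA and 0.35 for DMBA against TCDD. Leaving out 1 array, Atf3 in WT BP ranged from -0.037 (without WT oil replicate 3) to 1.04 (without replicate 1), and the lowest Asns values were -1.63 in Cyp1b1-null, -1.59 in Cyp1a1-null and -1.11 in double-null oil (all without WT oil replicate 2). Cy3 alone gave -0.34 for Atf4 in Cyp1b1-null DMBA against oil in both fits, -0.33 and -0.43 for the difference of DMBA responses, and -0.12 and -1.17 for Aldh1l2 in double-null oil. The causes were not tested.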
